A study of Mus musculus with 2 samples.

Results

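The cells described here are the GABAergic cortical cells of 2 E16.5 mouse embryos that carried the caudal ganglionic eminence (CGE) genes *Adarb2* and *Nr2f2* or *Prox1*. They were chosen by their own counts of unique molecular identifiers (UMIs, tags that each mark 1 captured transcript molecule). A member had at least 1 UMI of *Gad1* and *Gad2* together, at least 3 of *Adarb2*, at least 2 of *Nr2f2* and *Prox1* together, none of *Lhx6*, at most 2 of *Nxph1* and at most 3 of *Neurod2* and *Neurod6* together. In all, 238 of 22347 cells met this gate, 128 of 10879 in embryo 4 and 110 of 11468 in embryo 5. Both embryos were wild type by their labels and served as controls of an *Eomes*-Cre line (EomesMllt3), and the study kept its mice on a C57BL/6J background. The cortex of each embryo was dissociated with papain and sequenced as 1 droplet library (10x Genomics, 3′ end), so there was 1 condition and no treatment, and each embryo number names 1 animal. The labels give the source as brain hemispheres, and no file used here assigned cells to types. Every comparison below is therefore between cell classes of the same embryos, with n = 2 embryos.

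Cortical interneurons are born outside the cortex, in the ganglionic eminences of the ventral forebrain, and reach it by tangential migration. The medial ganglionic eminence (MGE) gives rise to somatostatin and parvalbumin interneurons under *Lhx6*, whereas the CGE gives rise to interneurons that later carry VIP, reelin, cholecystokinin or the serotonin receptor gene *Htr3a*. CGE cells are born later than MGE cells. *Nr2f2* (COUP-TFII) and *Prox1* are transcription factors of CGE-born cells, and *Adarb2* encodes a catalytically inactive member of the RNA-editing enzyme family that marks CGE-derived interneurons in the adult cortex. The lateral ganglionic eminence (LGE) supplies striatal projection neurons and olfactory bulb interneurons, among which *Meis2* and *Pbx3* are common. Cells of the LGE were not meant to be met by the gate, but it set no limit on *Meis2*.

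The gate genes themselves chose the members and are given as description only. *Adarb2* (chromosome 13, 8202526 to 8768762 in GRCm38.p6) had a median of 27 UMIs per member in embryo 4 and 41 in embryo 5, with ranges of 3 to 247 and 3 to 193. *Nr2f2* (chromosome 7, 70351946 to 70366746) was counted in 91.4% and 83.6% of members, and *Prox1* (chromosome 1, 190118035 to 190170827) in 54.7% and 58.2%. *Gad1* and *Gad2*, the enzymes that make GABA, were counted in 88.3% and 92.2% of members in embryo 4 and in 87.3% and 92.7% in embryo 5. Most members thus lay well above the *Adarb2* minimum, and *Nr2f2* met the second condition more often than *Prox1*.

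At the *Adarb2* minimum, 12 and 13 members had 3 or 4 UMIs, and 11 and 5 cells with 2 UMIs missed the gate on that count alone. Levels in this text are CPM, the UMIs of a gene in a class and embryo scaled to a fixed total (1e6) of summed UMIs, given for embryo 4 and then for embryo 5. The members with 3 or 4 *Adarb2* UMIs had *Erbb4* at 2028 and 1283 CPM, the cells with 2 at 1440 and 1797, and the members with 5 or more at 7998 and 9340. *Npas1* was at 0 in both embryos for 3 or 4 UMIs, at 0 and 22.5 CPM for 2, and at 71.0 and 94.8 CPM for 5 or more. For both genes the cells on either side of the minimum thus lay closer to each other than to the members well inside it. Other genes were looked at, and not all had this order. *Sp8* was at 123 and 67.4 CPM for 2 UMIs, at 6.54 and 136 for 3 or 4, and at 105 and 113 for 5 or more. On the other condition, 28 and 33 members had exactly 2 UMIs of *Nr2f2* and *Prox1*, and 59 and 38 cells with 1 UMI fell just outside.

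Members made up 1.18% of the kept cells of embryo 4 (exact 95% binomial interval 0.983 to 1.40%, counting error only) and 0.959% of embryo 5 (0.789 to 1.15%). For every 100 MGE interneurons, chosen by a UMI gate on other genes (*Lhx6* and *Nxph1*), there were 27.1 and 24.8 members. Fewer members and poorer capture of them cannot be told apart. The gate is narrow: of 2248 and 1999 kept cells with a *Gad1* or *Gad2* UMI, 1458 and 1204 met neither the CGE gate nor the MGE or LGE gates used for comparison. No cell that the filter on genes and mitochondrial UMIs removed would have met the CGE gate. Median depth was 6327 and 6982.5 UMIs per member, against 7106 and 6673 in MGE interneurons and 8522 and 7017.5 in LGE-type neurons, and the members' sums held 1026708 and 835198 UMIs. The libraries shared 46 barcodes, 0 of them among the members. A doublet score marked 6 and 5 members (4.69% and 4.55%), against 8.70% and 9.17% of all kept cells.

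Several markers outside the gate went with the name and others did not. *Meis2* (chromosome 2, 115861264 to 116067537) was at 0 in 60 and 66 members and at 3 or more UMIs in 48 and 34 (37.5% and 30.9%). Of the MGE interneurons, 7.61% and 3.84% had 3 or more, and of the excitatory neurons 90.8% and 88.1%. These MGE cells had median depths of 12309.5 and 16149 UMIs. The *Meis2*-rich members were deeper, with medians of 8889.5 and 9144.5 UMIs against 5739 and 6511.5 in those with fewer than 3. At least 3 UMIs of the mitotic genes *Mki67* and *Top2a* together were found in 21 and 13 members (16.4% and 11.8%), and 18 and 13 of these were *Meis2*-rich. The gate thus held cells of at least 2 kinds, most of them *Meis2*-poor, and the plot of *Adarb2* against *Meis2* shows every member.

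**Figure D1:**
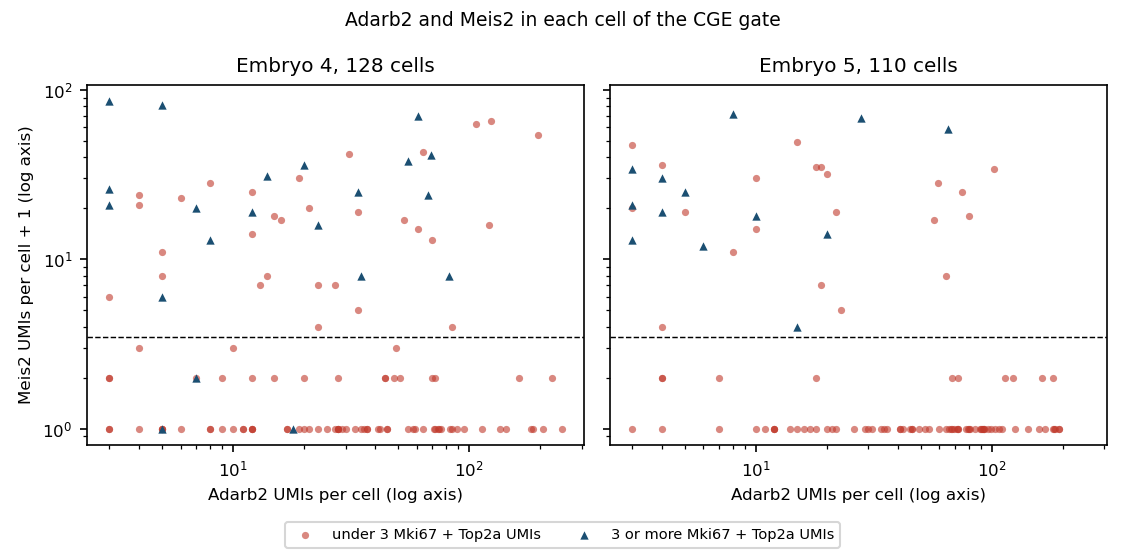
Each point is 1 member, by its *Adarb2* UMIs (x, log axis) and its *Meis2* UMIs plus 1 (y, log axis), in embryo 4 (128 cells) and embryo 5 (110 cells). Triangles have 3 or more UMIs of *Mki67* and *Top2a* together, and the dashed line parts members with 3 or more *Meis2* UMIs (48 and 34) from the rest. Of the triangles, 18 of 21 in embryo 4 and 13 of 13 in embryo 5 lie above the line.

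The *Meis2*-poor and *Meis2*-rich members differed in several genes that describe CGE cells, and these values are a description of groups cut from the same data. *Erbb4*, a neuregulin receptor of migrating interneurons, was at 11701 and 12051 CPM in *Meis2*-poor members and at 3024 and 2598 in *Meis2*-rich ones. *Npas1*, a transcription factor of the CGE lineage, was at 110 and 133 CPM against 16.6 and 5.88. *Nr3c2*, the mineralocorticoid receptor, was at 476 and 474 CPM against 53.4 and 41.2. *Htr3a*, *Cnr1* and *Adarb2* itself were likewise higher in the *Meis2*-poor members of both embryos. *Sp8*, a zinc-finger factor shared by the CGE and the dorsal LGE, was instead at 78.6 and 92.9 CPM in *Meis2*-poor and 101 and 150 in *Meis2*-rich members. *Foxp2*, a factor of LGE-derived neurons, was at 35.2 and 14.1 CPM in *Meis2*-poor members and at 1224 and 538 in *Meis2*-rich ones. *Pbx3* was at 302 and 446 CPM against 907 and 1218. The *Meis2*-rich members that were not cycling still had *Erbb4* at 4800 and 3420 CPM and *Foxp2* at 1620 and 583. Several counts and folds below are also given without these members, not all that change. That alternative was chosen after the data were seen.

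Microglial markers summed to 12.7 and 5.99 CPM over 6 genes, with *C1qa* and *Aif1* at 0, and oligodendrocyte lineage markers to 4.87 and 2.39 CPM over 5, with *Sox10* at 0. Vascular markers summed to 6.82 and 74.2 CPM over 6 genes. The embryo 5 value came from *Cldn5*, *Flt1* and *Pecam1* in 3 members at most, and *Pdgfrb* was at 0. Blood genes, largely hemoglobin, summed to 311 and 521 CPM over 6 genes, against 1323 and 498 in MGE interneurons. Of the excitatory neuron markers, the vesicular glutamate transporter genes *Slc17a7* and *Slc17a6* had 2 and 10 UMIs in all in embryo 4 and 2 and 6 in embryo 5. The 11 excitatory markers summed to 750 and 767 CPM, against 2360 and 2554 in excitatory neurons, and the 10 radial glia and astroglial markers to 886 and 764 CPM, against 7184 and 7104 in radial glia-type cells.

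The deepest member stood apart. It lay in embryo 4, held 57963 UMIs (5.65% of that embryo's sum), was marked by the doublet score, and carried 447 of the 742 *Reln* UMIs of the 128 members together with 85 of *Meis2* and 7 of *Trp73*, a marker of Cajal-Retzius cells. Without it *Reln* fell from 723 to 305 CPM in embryo 4, and *Ndnf* from 40.9 to 6.19 CPM. The deepest member of embryo 5 held 20980 UMIs and 1 UMI of *Reln*. Results on these 2 genes are given with and without it.

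The members were also split by the pair of factors in the gate. *Nr2f2* without *Prox1* was found in 58 and 46 members, both in 59 and 46, and *Prox1* without *Nr2f2* in 11 and 18. Groups of under 20 cells were not tested, so these levels are a description. Members with *Nr2f2* alone had *Reln*, the extracellular protein of Cajal-Retzius cells and of a later interneuron class, at 1554 CPM in embryo 4 (639 without the deepest member) and 906 in embryo 5. Members with both factors had it at 92.6 and 130 CPM and those with *Prox1* alone at 26.2 and 11.8. *Reln* was thus highest with *Nr2f2* alone in both embryos, also without the deepest member. *Cnr1*, the cannabinoid receptor of later cholecystokinin cells, had the same order, at 223 and 355, 118 and 150, and 87.5 and 17.7 CPM. *Maf* was at 78.2 and 162 CPM with *Nr2f2* alone, at 23.7 and 35.4 with both and at 0 and 23.6 with *Prox1* alone. *St18*, a zinc-finger factor, was lowest with *Nr2f2* alone (84.9 and 39.8 CPM) and highest with both (394 and 257), with 192 and 142 CPM for *Prox1* alone. *Sp8* was also lowest with *Nr2f2* alone, at 55.8 and 67.3 CPM, against 114 and 139 with both and 131 and 165 with *Prox1* alone.

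The *Prox1*-only members overlapped the *Meis2*-rich ones, since 8 of 11 and 15 of 18 had 3 or more *Meis2* UMIs. They had *Meis2* at 1689 and 2585 CPM, *Mki67* at 376 and 395, *Erbb4* at 2878 and 1446 and *Nr3c2* at 8.75 and 0. *Nr2f1* (COUP-TFI) was at 219 and 17.7 CPM in them, against 391 and 511 with *Nr2f2* alone. *Etv1*, a factor of dorsal LGE and olfactory bulb cells among others, was at 43.7 and 372 CPM with *Prox1* alone and between 12.9 and 27.5 CPM in the other groups of both embryos. Only 11 and 18 cells stand behind these sums.

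CGE members were next compared with MGE interneurons, 473 and 443 cells of the same embryos with at least 1 UMI of *Gad1* and *Gad2*, at least 1 of *Lhx6* and at least 3 of *Nxph1*, and with the CGE genes at or under low limits. UMIs were summed per class and embryo, and the sums were tested across 11408 genes outside the gates with edgeR's quasi-likelihood test and Benjamini-Hochberg adjustment. A gene with an adjusted p under 0.05 is called higher or lower. Against MGE interneurons 759 genes were higher in CGE members, 6.65% of those tested, and 512 were lower, 4.49%. Without the *Meis2*-rich members these counts were 261 and 310, and without cycling cells of every class 342 and 333. The median log2 fold change over the tested genes was 0.0027. Both classes were cut from the same libraries by genes measured in the same cells.

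Of 20 regulators linked to the CGE outside the gate, 6 were higher, 3 lower and 11 not called, with a median log2 fold change of 0.23. *Sp8* (chromosome 12, 118846288 to 118852578) was at 90.6 and 116 CPM in CGE members and at 1.40 and 1.54 in MGE interneurons, a log2 fold change of 6.005 (SE 0.306, adjusted p = 7.09e-07). The classes were far apart in both embryos. *Nr2f1* (chromosome 13, 78188971 to 78198873), the paralogue of *Nr2f2*, was at 445 and 383 CPM against 183 and 174, a log2 fold change of 1.15 (SE 0.183, adjusted p = 0.00176). *Nfib* and *Nfix*, nuclear factor I genes that act in the maturation of neurons and glia, were higher as well. *Nfib* was at 2496 and 2183 CPM against 433 and 231 (2.75, SE 0.248, adjusted p = 4.14e-05), and *Nfix* at 212 and 138 against 47.2 and 24.96 (2.21, SE 0.293, adjusted p = 0.000515). Excitatory neurons had still more of both, with *Nfib* at 3815 and 3933 CPM. *Hdac9*, a class II histone deacetylase, was at 158 and 140 CPM against 52.3 and 45.9 (1.53, SE 0.139). *Sall1* was at 31.2 and 34.7 CPM against 5.62 and 3.08 (2.81, SE 0.388, adjusted p = 0.000671), and that call was lost without the *Meis2*-rich members (2.11, adjusted p = 0.0564).

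The regulators lower in CGE members were *Tox2*, *Rora* and *Zmat4*. *Tox2*, an HMG-box factor, was at 16.6 and 11.97 CPM against 132 and 147 in MGE interneurons (log2 fold change -3.34, SE 0.285, adjusted p = 2.91e-05). *Rora*, a nuclear receptor, was at 96.4 and 169 CPM against 495 and 514 (-2.01, SE 0.222, adjusted p = 0.000159). *Npas1*, often used as a CGE marker, did not separate the classes, with 60.4 and 81.4 CPM in CGE members and 77.8 and 94.3 in MGE interneurons (-0.36, SE 0.195, adjusted p = 0.309). Its sign depended on the *Meis2*-rich members, without which it was 0.48 (adjusted p = 0.228). *Npas3* (2680 and 3223 CPM against 2671 and 2698) and *Zbtb16* (122 and 169 against 136 and 153) were not called either. The levels of these genes by class and embryo are plotted with those of the MGE and LGE lists.

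**Figure D2:**
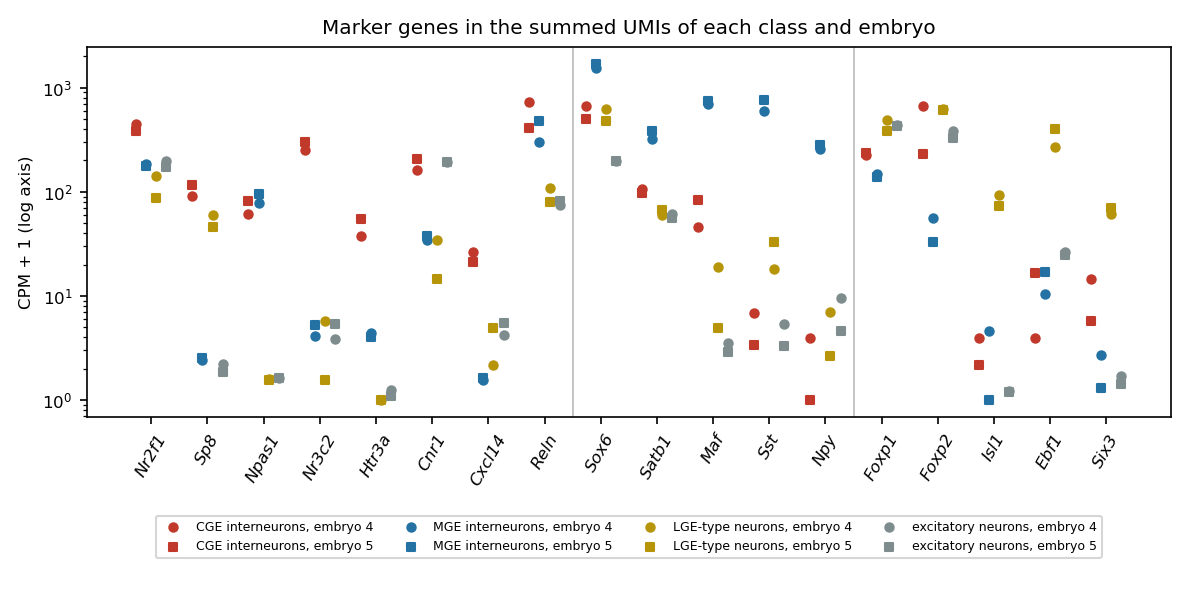
Levels (CPM plus 1, log axis) of CGE-linked, MGE-linked and LGE-linked genes, from left to right between the grey lines, in CGE, MGE, LGE-type and excitatory classes of embryo 4 (circles) and embryo 5 (squares). *Sp8*, *Nr3c2*, *Htr3a* and *Cxcl14* lie above the MGE class in both CGE sums, *Npas1* lies slightly below it, and *Sst*, *Npy* and *Maf* lie far below it.

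Of 20 genes of mature CGE subtypes, 10 had enough UMIs to be tested, and 5 were higher, 1 lower and 4 not called (median log2 fold change 1.63). *Htr3a* (chromosome 9, 48899213 to 48911152), the ionotropic serotonin receptor, was at 37.0 and 53.9 CPM in CGE members and 3.37 and 3.08 in MGE interneurons, a log2 fold change of 3.71 (SE 0.366, adjusted p = 0.00013). *Cxcl14*, a chemokine gene of reelin and neurogliaform cells, was at 25.3 and 20.4 CPM against 0.562 and 0.616 (5.08, SE 0.583, adjusted p = 0.000188). *Cnr1* was at 161 and 204 CPM against 33.7 and 36.4 (2.30, SE 0.253, adjusted p = 0.000152). *Synpr*, a synaptic vesicle protein, was at 54.5 and 125 CPM against 3.93 and 3.39 (4.50, SE 0.437). The sums of these 4 genes did not overlap between the classes. They were picked among called genes, so this adds no support to the calls. The share of all tested genes without overlap was not counted. *Cck*, the cholecystokinin gene, went the other way, at 0.974 and 3.59 CPM against 43.3 and 45.9 (-4.40, SE 0.478, adjusted p = 0.000143). *Ndnf* was called at 40.9 and 14.4 CPM against 4.78 and 3.698 (2.65, SE 0.464, adjusted p = 0.00329). The deepest member held 85.7% of its embryo 4 UMIs, and the call was lost without the CGE sum of embryo 4 (1.71, adjusted p = 0.164), without marked doublets (1.49, adjusted p = 0.116) and without the *Meis2*-rich members (1.91, adjusted p = 0.104). *Reln* was at 723 and 409 CPM against 299 and 479 and was not called (0.47, SE 0.263, adjusted p = 0.33). Without marked doublets its log2 fold change was -0.11.

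Genes of the most mature subtypes were hardly counted. *Vip*, *Sncg*, *Chat*, *Crh*, *Igfbp6* and *Scgn* had 0 UMIs in all 238 members, and *Lamp5* had 1. For *Vip*, 0 of 128 and 0 of 110 cells allow a share of cells with a UMI of up to 2.84% and 3.30% (upper ends of the exact 95% interval). Because depth differed, shares were also taken with every cell thinned to 3000 UMIs, which left out 18 and 5 shallower members. At equal depth *Htr3a* was counted in 7.27% and 15.2% of members (14.1% and 24.5% unthinned), against 0.905% and 0.941% of MGE interneurons and 0.0820% and 0.0447% of excitatory neurons, which should lack it. *Cxcl14* was counted in 6.36% and 3.81% (13.3% and 10.9% unthinned), against 0.672% and 0.805% of excitatory neurons. *Cnr1* was counted in 29.1% and 30.5% of members (40.6% and 38.2% unthinned) but in 35.6% and 36.0% of excitatory neurons, where its level of 191 and 193 CPM was also that of the members, so no cell type here served as its background. *Reln* was counted in 28.2% and 34.3% of members and 30.3% and 36.0% of MGE interneurons.

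**Figure D3:**
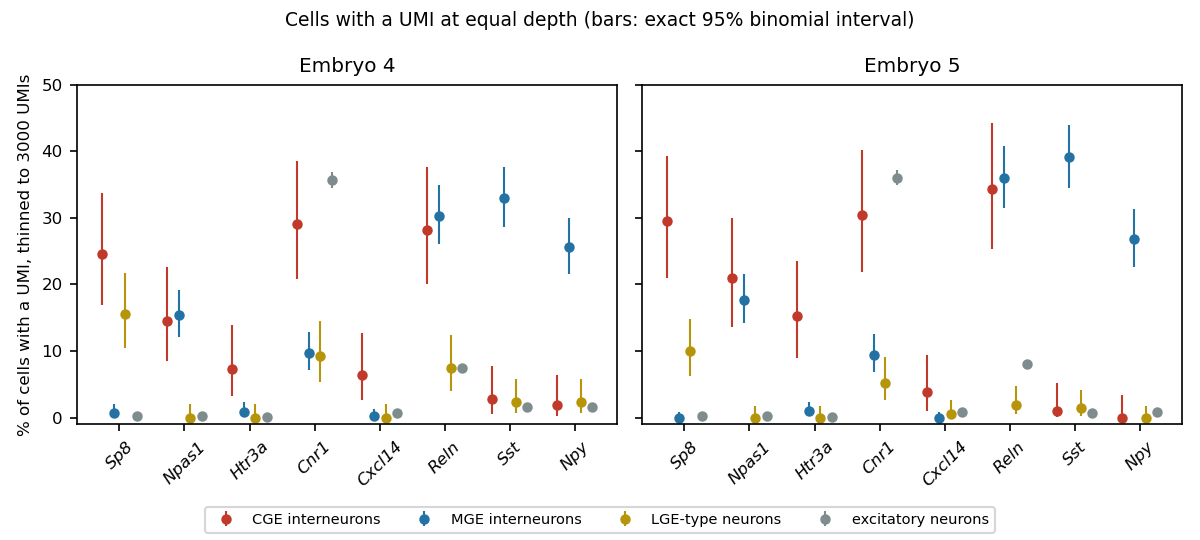
Percentage of cells with at least 1 UMI of 8 genes after each cell was thinned to 3000 UMIs, in the 4 classes of each embryo, with exact 95% binomial intervals (counting error only). *Sp8* and *Htr3a* were more often counted in CGE members (24.5% and 29.5%, and 7.27% and 15.2%) than in the other 3 classes of both embryos. *Npas1* and *Reln* were counted about as often in MGE interneurons.

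Of 10 tested MGE regulators, 6 were lower in CGE members, 1 was higher and 3 were not called (median log2 fold change -2.19). *Sox6* and *Satb1*, which act downstream of *Lhx6*, were counted at reduced but clear levels. *Sox6* was at 670 and 503 CPM in CGE members and 1549 and 1689 in MGE interneurons (-1.54, SE 0.173, adjusted p = 0.00017), and *Satb1* at 104 and 95.8 against 323 and 381 (-1.88, SE 0.154, adjusted p = 2.1e-05). *Maf*, a basic leucine zipper factor of MGE interneurons, differed more and was at 44.8 and 82.6 CPM against 698 and 746 (-3.59, SE 0.326, adjusted p = 4.26e-05). *Cux2* was at 59.4 and 41.9 CPM against 740 and 774 (-3.96, SE 0.171), and *Mef2c* at 243 and 251 against 1364 and 1311 (-2.51, SE 0.161). *St18*, placed on this list, was the exception, at 237 and 148 CPM in CGE members against 12.6 and 6.78 (4.23, SE 0.265, adjusted p = 3.55e-06).

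Of 8 tested genes of mature MGE subtypes, 6 were lower and 1 was higher (median log2 fold change -3.36). *Sst*, the somatostatin gene, was at 5.84 and 2.39 CPM against 595 and 762 (-7.36, SE 0.366, adjusted p = 7.09e-07). *Npy* had 3 UMIs in all CGE members and 1838 in MGE interneurons, a ratio of 168 (95% interval 57.3 to 814, counting error only). *Sst* was counted in 4.69% and 1.82% of members and in 4.98% and 2.15% of excitatory neurons, which should lack it and had median depths of 11290 and 9839 UMIs, so these counts are read as background. *Calb1*, the calbindin gene, was at 4.87 and 1.20 CPM against 58.2 and 48.7 (-4.10, SE 0.397, and -5.64 without the *Meis2*-rich members), and *Elfn1* at 2.92 and 9.58 against 58.2 and 72.4 (-3.52, SE 0.391). The gene called higher was *Chodl*, at 5.84 and 5.99 CPM against 0 and 0.308. It had 11 UMIs in the members, and the call was lost when the CGE sum of either embryo was left out (adjusted p = 0.0933 and 0.0787).

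Of 13 tested LGE and striatal genes outside the gates, 5 were higher in CGE members and 1 was lower (median log2 fold change 0.69), but without the *Meis2*-rich members 1 of 12 was higher and 1 lower. *Foxp2* was at 664 and 227 CPM against 55.1 and 32.05 (3.28, SE 0.398, adjusted p = 0.000281). Without the *Meis2*-rich members its direction turned (-0.85, adjusted p = 0.351). *Pax6*, which marks progenitors and also olfactory bulb-bound cells, was at 81.8 and 116 CPM against 15.2 and 8.01 (2.995, SE 0.296, adjusted p = 6.91e-05) and stayed higher without them (2.51, adjusted p = 0.0031). *Foxp1*, *Tshz1* and *Six3* were called, and the call of each was lost without the *Meis2*-rich members (adjusted p = 0.224, 0.532 and 0.82) and without the CGE sum of embryo 4 (0.0696, 0.0704 and 0.312). Those of *Foxp1* and *Tshz1* were also lost without that of embryo 5 (0.116 and 0.0671). *Gucy1a1*, a subunit of soluble guanylate cyclase, was lower, at 5.84 and 11.97 CPM against 124 and 112 (-3.84, SE 0.368, adjusted p = 5.65e-05).

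The regulators that all forebrain GABAergic cells share were more abundant in CGE members in 7 of 13 cases and less so in 3 (median log2 fold change 0.60), and in 5 and 4 without the *Meis2*-rich members. The *Dlx* homeobox genes *Dlx1*, *Dlx5* and *Dlx6* and the antisense transcript *Dlx6os1* were among the 7. *Dlx1* was at 484 and 450 CPM against 206 and 199 (1.14, SE 0.182, adjusted p = 0.0018), and *Dlx6os1* at 1888 and 2396 against 744 and 740 (1.47, SE 0.196, adjusted p = 0.000544). Whether the counting used strand is not given in the sources used here. Reads of *Dlx6os1* and of *Dlx6*, which it overlaps, thus cannot be told apart with certainty. The same holds for *Dlx1* and the antisense transcript *Dlx1as*, which overlap as well. *Pou3f4* was at 93.5 and 97.0 CPM against 17.4 and 10.8 (2.67, SE 0.232).

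None of 14 tested genes of GABA handling and GABA receptors was higher in CGE members and 5 were lower (median log2 fold change -0.42). *Slc32a1*, the vesicular GABA transporter, was at 53.6 and 52.7 CPM against 82.0 and 72.4 (-0.61, SE 0.171, adjusted p = 0.0431). The call was lost without the *Meis2*-rich members (adjusted p = 0.868) and without the CGE sum of embryo 4 (0.213) or of embryo 5 (0.136). *Gabrg3*, a GABA-A receptor subunit, was at 58.4 and 15.6 CPM against 281 and 288 (-2.96, SE 0.327, adjusted p = 0.000158), and of this list it alone was called lower without the *Meis2*-rich members (-2.46, adjusted p = 0.000961).

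Glutamate receptor genes were lower in 8 of 20 cases and higher in 4 (median log2 fold change -0.29), and in 6 and 2 without the *Meis2*-rich members. The AMPA receptor subunit *Gria1* (chromosome 11, 57011571 to 57330244) was at 173 and 140 CPM in CGE members and 3194 and 3415 in MGE interneurons (-4.47, SE 0.172, adjusted p = 2.6e-07). *Gria4* was at 286 and 354 CPM against 2715 and 2606 (-3.12, SE 0.208, adjusted p = 5.17e-06). The metabotropic receptor *Grm5* was at 33.1 and 20.4 CPM against 1078 and 1206 (-5.46, SE 0.612), and the kainate receptor subunit *Grik1* at 61.4 and 110 against 520 and 766 (-2.99, SE 0.326). The highest CGE sum of each of these 4 called genes lay far below the lowest MGE sum. They were picked among called genes, with no share over all tested genes beside it, so this adds no support. In the other direction, the NMDA receptor subunit *Grin2d* was at 29.2 and 31.1 CPM against 6.18 and 6.16 (2.21, SE 0.356, adjusted p = 0.00194) and the kainate subunit *Grik4* at 39.9 and 43.1 against 8.99 and 16.02 (1.66, SE 0.298). Auxiliary and scaffold genes of these receptors were among the leading lower genes. *Neto1*, an auxiliary kainate and NMDA receptor subunit, was at 6.82 and 1.20 CPM against 415 and 527 (-6.84, SE 0.343), and the postsynaptic scaffold gene *Dlgap1* at 190 and 206 against 3561 and 3563 (-4.24, SE 0.300).

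Of 9 tested neuromodulator receptors, 4 were higher and 2 lower (median log2 fold change 1.49). Besides *Htr3a* and *Cnr1*, the nicotinic receptor subunit *Chrna7* was at 46.8 and 86.2 CPM against 18.8 and 25.6 (1.49, SE 0.322, adjusted p = 0.0111), which was lost without the CGE sum of embryo 5 (0.97, adjusted p = 0.144). The adrenergic receptor *Adra1a* was at 20.5 and 9.58 CPM against 1.40 and 1.54 (3.26, SE 0.524, adjusted p = 0.00187), which was lost without that of embryo 4 (2.62, adjusted p = 0.0857). The muscarinic receptors were the lower ones. *Chrm2* had 0 UMIs in CGE members and 149 in MGE interneurons, at least 13.6-fold lower against a floor of 3 UMIs over the class. *Chrm3* was at 42.9 and 16.8 CPM against 170 and 226 (-2.75, SE 0.379, adjusted p = 0.000668). Single members held 54.5% and 85.7% of its UMIs, and without the *Meis2*-rich members the log2 fold change was -5.998.

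Receptors and ligands of migration and guidance were called in both directions, 14 higher and 9 lower of 46 (median log2 fold change 0.32), and 8 and 8 of 46 without the *Meis2*-rich members. CXCL12 is a chemokine that keeps interneurons in their migratory streams, and its receptors were lower in CGE members. *Ackr3* (chromosome 1, 90203980 to 90215724), the scavenger receptor, was at 14.6 and 13.2 CPM against 330 and 297 in MGE interneurons (-4.55, SE 0.194, adjusted p = 2.75e-07). *Cxcr4*, the signalling receptor, was at 11.7 and 17.96 CPM against 47.5 and 29.6 (-1.47, SE 0.407, adjusted p = 0.0403). *Ackr3* was counted in 6.25% and 8.18% of members and in 7.88% and 7.46% of excitatory neurons. The call of *Cxcr4* was lost under several alternatives, among them leaving out the CGE sum of embryo 4 (-1.14, adjusted p = 0.326) or of embryo 5 (-1.83, adjusted p = 0.0892). *Erbb4* (chromosome 1, 68031884 to 69108576) was at 7109 and 8204 CPM against 12971 and 12167 and was not called (-0.78, SE 0.241, adjusted p = 0.0652). With the embryo as a block it was called lower (-0.77, adjusted p = 0.0202), as it was under 7 of 15 alternatives in all (adjusted p from 6.86e-09 to 0.0475). Without the *Meis2*-rich members it was -0.10 (adjusted p = 0.912).

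Slit, semaphorin and ephrin genes also differed. *Slit1*, a repellent ligand, was at 143 and 156 CPM against 18.8 and 9.55 (3.31, SE 0.239, adjusted p = 9.32e-06), and its receptor *Robo1* at 856 and 687 against 207 and 136 (2.10, SE 0.236, adjusted p = 0.00017). *Nrp2*, a semaphorin co-receptor, was at 161 and 158 CPM against 42.4 and 35.1 (1.97, SE 0.334, adjusted p = 0.00266). The ephrin receptor *Epha4* was at 388 and 287 CPM against 108 and 66.6 (1.88, SE 0.211, adjusted p = 0.00017). The lowest CGE sum of each of these 4 called genes was above the highest MGE sum. Again they were picked among called genes, with no share over all tested genes, so this adds no support. The ephrin ligand *Efnb2* was lower, at 133 and 146 CPM against 271 and 311 (-1.13, SE 0.169, adjusted p = 0.00118), as was the netrin receptor *Unc5c*, at 79.9 and 109 against 284 and 349 (-1.83, SE 0.189, adjusted p = 0.000101). *Wnt5a* (chromosome 14, 28504543 to 28527448), a secreted Wnt ligand, was at 71.1 and 144 CPM against 3.93 and 4.62 (4.55, SE 0.422, adjusted p = 4.74e-05).

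Adhesion genes were lower in 17 of 52 cases and higher in 7 (median log2 fold change -0.27), and in 13 and 8 without the *Meis2*-rich members. Among the higher ones were *Nlgn1*, a postsynaptic partner of neurexins, at 901 and 1078 CPM against 338 and 259 (1.66, SE 0.195), *Pcdh9* at 2303 and 2261 against 915 and 832 (1.32, SE 0.156) and *Negr1* at 1758 and 1950 against 946 and 930 (0.92, SE 0.146). *Cdh4* was at 241 and 177 CPM against 61.2 and 46.2 (1.89, SE 0.183). Among the lower ones *Pcdh19* was at 74.0 and 58.7 CPM against 270 and 294 (-2.15, SE 0.168), and *Cntn1* at 13.6 and 15.6 against 104 and 120 (-3.01, SE 0.250). *Cntnap3* had 0 UMIs in CGE members and 1302 in MGE interneurons, at least 119-fold lower.

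Of 36 voltage-gated channel genes, 11 were lower and 6 higher (median log2 fold change -0.30), and 6 and 4 without the *Meis2*-rich members. *Dpp10*, an auxiliary subunit of Kv4 channels, was at 74.0 and 39.5 CPM against 2410 and 2591 (-5.51, SE 0.576, adjusted p = 0.000111), while the Kv4 subunit gene *Kcnd2* itself was higher, at 677 and 674 against 237 and 275 (1.33, SE 0.171, adjusted p = 0.000407). *Kcnmb2*, a subunit of calcium-activated potassium channels, was at 39.9 and 70.6 CPM against 520 and 510 (-3.31, SE 0.271), and *Kcnc2*, a Kv3 subunit of fast-spiking cells, at 121 and 89.8 against 544 and 509 (-2.38, SE 0.227). *Cacna2d3*, an auxiliary calcium channel subunit, was at 704 and 922 CPM against 221 and 210 (1.85, SE 0.162, adjusted p = 3.32e-05). Of 15 genes of young and migrating neurons, 3 were lower and 0 higher (median -0.24). The lower ones were the synaptic genes *Syt1*, at 746 and 642 CPM against 1976 and 2028 (-1.60, SE 0.186), and *Snap25*, at 144 and 140 against 284 and 280 (-1.06, SE 0.129), and the splicing factor *Rbfox1*, at 448 and 271 against 1902 and 1998 (-2.51, SE 0.294). *Dcx*, the microtubule protein of migrating neurons, was at 663 and 848 CPM against 891 and 926 and was not called (-0.33, adjusted p = 0.255).

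Proliferation genes were higher in CGE members in 11 of 12 cases and lower in 0 (median log2 fold change 2.95), and this rested on the *Meis2*-rich members. The gates were unlike, since the MGE gate required *Lhx6* and *Nxph1* UMIs and the CGE gate did not. Of the MGE interneurons 2.54% and 1.35% were cycling, against 16.4% and 11.8% of members. How far the gates set this direction was not tested. *Top2a* was at 318 and 304 CPM against 30.3 and 19.7 (3.56, SE 0.277, adjusted p = 1.66e-05) and *Mki67* at 168 and 129 against 16.3 and 9.86 (3.42, SE 0.317). Without the *Meis2*-rich members 0 of 12 were called in either direction, with *Top2a* at 0.95 (adjusted p = 0.573) and *Mki67* at 0.20 (adjusted p = 0.939). Without cycling cells of every class 1 of 11 was called higher. Of the cells of other types, radial glia markers were higher in 3 of 10 cases (*Pax6*, *Vim* and *Nes*). Without the *Meis2*-rich members *Pax6* alone was called higher and *Fabp7* lower, with *Vim* going from 0.91 to -0.18 (adjusted p = 0.839) and *Nes* from 0.96 to -0.33 (adjusted p = 0.774). Of the genes of the other lists that had enough UMIs to be tested, 1 microglial, 1 vascular, 6 blood and 1 oligodendrocyte, none was called. Their part in the other results was not tested.

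Outside the lists, *Nr3c2*, *B130024G19Rik* and *Sorcs3* led by size of change. *Nr3c2* (chromosome 8, 76898083 to 77245012) was at 252 and 298 CPM in CGE members and 3.09 and 4.31 in MGE interneurons (6.13, SE 0.289, adjusted p = 5.37e-07), in 32 and 33 members with a UMI of it. *Sorcs3*, a sorting receptor, was at 305 and 498 CPM against 15.7 and 7.40 (5.03, SE 0.314, adjusted p = 3.47e-06). *Pdzrn3*, a ubiquitin ligase, was at 321 and 455 CPM against 22.5 and 33.3 (3.73, SE 0.228), and the adhesion gene *Sdk2* at 66.2 and 87.4 against 5.06 and 5.55 (3.77, SE 0.246). *Adcy2*, an adenylyl cyclase, was at 65.3 and 67.0 CPM against 3.09 and 7.40 (3.59, SE 0.332), and *Hs6st3*, a heparan sulfate sulfotransferase, at 232 and 125 against 15.7 and 14.2 (3.51, SE 0.278, and 2.43 without the *Meis2*-rich members). The non-coding gene *B130024G19Rik* was at 136 and 168 CPM against 4.21 and 2.77 (5.34, SE 0.273). It overlaps the gate gene *Nr2f2* by 1364 bases on the opposite strand, and the part of the gate in its value was not tested. Among the leading lower genes *Nxph2*, a neurexophilin related to the gate gene *Nxph1*, had 0 UMIs in CGE members and 2121 in MGE interneurons (at least 193-fold lower), and the homeobox gene *Mkx* 0 and 476 (at least 43.4-fold lower). *Fam135b* was at 4.87 and 0 CPM against 327 and 350, and *Ptchd4* at 28.2 and 23.9 against 596 and 774 (-4.77, SE 0.213). The plot of fold changes sets the values with and without *Meis2*-rich members side by side.

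**Figure D4:**
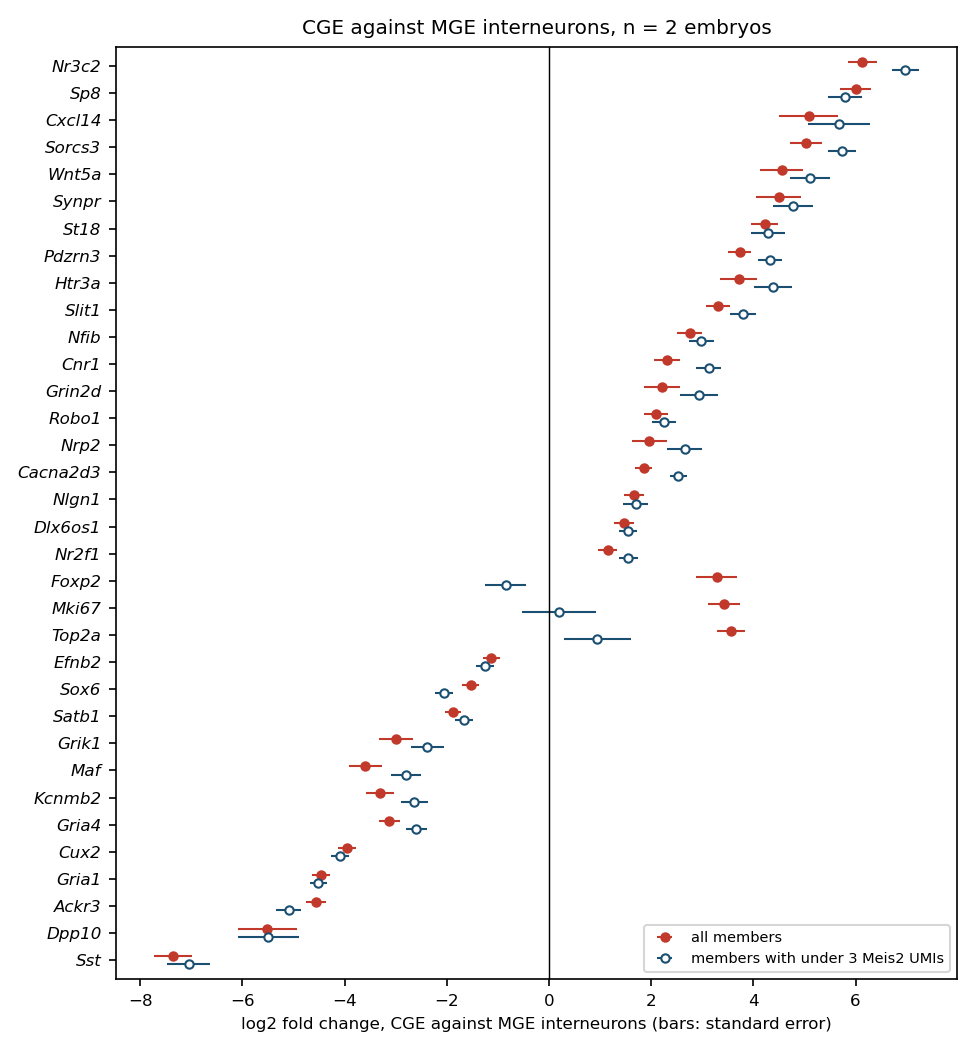
Log2 fold change of 34 genes in CGE members against MGE interneurons, with standard errors (n = 2 embryos), for all members (filled) and for members with fewer than 3 *Meis2* UMIs (open). The open points lie near the filled ones except for *Foxp2* (3.28 and -0.85), *Top2a* (3.56 and 0.95) and *Mki67* (3.42 and 0.20).

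The second comparison set CGE members against LGE-type neurons, 189 and 242 GABAergic cells of the same embryos with at least 3 *Meis2* and at least 1 *Pbx3* UMI, no *Lhx6* and low CGE genes. It shares the CGE sums with the first comparison, so the pair are not independent. In CGE members 703 genes were higher, 6.16% of those tested, and 591 lower, 5.18%. Without the *Meis2*-rich members, which share a gate gene with the LGE class, the counts rose to 1170 and 1361. That cut parts the classes on *Meis2* itself, so values under it of genes that go with *Meis2* are description only. Without cycling cells they were 413 and 365, and 59 and 95 of the LGE-type cells were cycling. The median log2 fold change over the tested genes was -0.016.

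CGE-linked regulators were higher than in LGE-type neurons in 10 of 20 cases and lower in 0 (median log2 fold change 0.68). *Npas1*, which did not separate CGE from MGE, had 130 UMIs in CGE members and 2 in LGE-type neurons, a ratio of 121 (95% interval 32.9 to 1011, counting error only). *Npas3* was at 2680 and 3223 CPM in CGE members and 495 and 504 in LGE-type neurons (2.64, SE 0.166, adjusted p = 1.09e-05). *Zbtb16*, the PLZF factor, was at 122 and 169 CPM against 14.3 and 13.4 (3.45, SE 0.236, adjusted p = 1.68e-05), and *Zfp536* at 740 and 1045 against 234 and 208 (2.09, SE 0.188, adjusted p = 0.000107). For none of these 4 genes was the difference from MGE interneurons called with all members. *Nr2f1* was at 142 and 86.2 CPM in LGE-type neurons (1.94, SE 0.194, adjusted p = 0.000201) and *Nfib* at 1101 and 913 (1.29, SE 0.236, adjusted p = 0.00611). *Sp8* was the closest of the called ones, at 58.3 and 44.8 CPM in LGE-type neurons (1.08, SE 0.201, adjusted p = 0.00661). Its call was lost without cycling cells (0.73, adjusted p = 0.0907) and without the CGE sum of embryo 5 (0.86, adjusted p = 0.0642).

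Of the mature CGE subtype genes, 6 of 10 were higher and 0 lower (median log2 fold change 2.86). *Htr3a* had 83 UMIs in CGE members and 0 in LGE-type neurons, at least 51.5-fold higher. *Cnr1* was at 33.3 and 13.4 CPM in LGE-type neurons (3.05, SE 0.290, adjusted p = 0.00015) and *Cxcl14* at 1.19 and 3.92 (3.19, SE 0.523, adjusted p = 0.00349). *Reln* was at 107 and 79.4 CPM there (2.68, SE 0.293, adjusted p = 0.000377), and the difference stayed without the *Meis2*-rich members, the deepest one included (2.78, adjusted p = 3.86e-05). MGE regulators were higher than in LGE-type neurons in 6 of 10 cases and lower in 0 (median 0.87). *Mef2c* was at 130 and 96.2 CPM in LGE-type neurons (1.21, SE 0.167, adjusted p = 0.00137) and *St18* at 53.5 and 55.4 (1.90, SE 0.231, adjusted p = 0.000659). *Maf*, at 17.8 and 3.92 CPM (2.62, SE 0.465, adjusted p = 0.00525), was called too, but not without the CGE sum of embryo 5 (adjusted p = 0.0602). CGE members thus lay between the classes for *Maf* and *Mef2c*.

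LGE and striatal genes were lower in 7 of 13 cases and higher in 0 (median log2 fold change -1.66). *Ebf1*, a factor of striatonigral neurons, was at 2.92 and 15.6 CPM in CGE members and 265 and 402 in LGE-type neurons (-5.19, SE 0.436, adjusted p = 8.74e-05). *Isl1*, another, was at 2.92 and 1.20 CPM against 92.2 and 72.2 (-5.14, SE 0.659, adjusted p = 0.000833). *Six3* was at 13.6 and 4.79 CPM against 60.1 and 68.3 (-2.66, SE 0.380), and -4.83 without the *Meis2*-rich members. *Foxp2* was at 664 and 227 CPM against 628 and 613 and was not called (-0.40, adjusted p = 0.511). Without the *Meis2*-rich members, which held most of its UMIs, *Foxp2* was lower as well (-4.56). This follows from the cut and is given as description only. *Gfra1*, a GDNF family receptor, was at 6.82 and 10.8 CPM against 61.8 and 52.0 (-2.64, SE 0.366). Cell cycle regulators were lower, with *Ccnd1* at 12.7 and 5.99 CPM against 77.3 and 86.2 (-3.01, SE 0.282, adjusted p = 0.000141) and *Cdk6* at 39.0 and 33.5 against 242 and 206 (-2.54, SE 0.218, adjusted p = 9.41e-05), the latter -7.58 without the *Meis2*-rich members.

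Genes of GABA handling and receptors were higher than in LGE-type neurons in 8 of 14 cases and lower in 0 (median log2 fold change 0.89). *Slc32a1* was at 31.5 and 25.2 CPM in LGE-type neurons (0.98, SE 0.200, adjusted p = 0.0103), which was lost without cycling cells (0.49, adjusted p = 0.2) and without the CGE sum of embryo 4 or 5 (adjusted p = 0.061 and 0.0623). *Gabra3* was at 41.9 and 31.1 CPM in CGE members against 13.7 and 10.6 (1.67, SE 0.261, adjusted p = 0.00254). Glutamate receptors were higher in 5 and lower in 3 of 20 cases (median 0.48), in 10 and 3 with the embryo as a block, and in 8 and 3 without the *Meis2*-rich members. *Gria4* was higher (194 and 126 CPM in LGE-type neurons, 1.08, SE 0.207, adjusted p = 0.00758) and *Gria1* lower (266 and 236 CPM, -0.60, SE 0.162, adjusted p = 0.0383). Of 9 neuromodulator receptors 3 were higher and 1 lower (median 1.05), and 3 and 2 with the block. Channels were higher in 14 of 36 cases and lower in 1 (median 0.60), or 15 and 4 without the *Meis2*-rich members. *Cacna2d3* was at 115 and 110 CPM in LGE-type neurons (2.94, SE 0.174, adjusted p = 6.61e-06). Without cycling cells of every class 8 of 35 channels were higher and 2 lower (median 0.32). The genes of young neurons, given below with all cells, were then higher in 4 of 15 cases and lower in 1 (median 0.20).

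Guidance genes were called in both directions, 10 higher and 9 lower of 46 (median log2 fold change -0.078). *Erbb4* was at 772 and 416 CPM in LGE-type neurons (3.77, SE 0.270, adjusted p = 2.38e-05), and *Nrg3*, which encodes a ligand of it, at 485 and 233 against 1352 and 1497 in CGE members (2.08, SE 0.266, adjusted p = 0.00083). *Dcc*, the netrin receptor, was lower, at 802 and 843 CPM against 2033 and 1985 (-1.21, SE 0.144, adjusted p = 0.000598). A single member held 53.5% of its embryo 5 UMIs, and without the *Meis2*-rich members the log2 fold change was -3.49. Adhesion genes were higher in 11 of 52 cases and lower in 4 (median 0.054), and in 16 and 8 without the *Meis2*-rich members. *Cntnap5c*, a contactin-associated protein gene, was at 398 and 583 CPM against 20.2 and 14.0 (4.92, SE 0.259, adjusted p = 3.75e-06). Genes of young neurons were higher in 7 of 15 cases and lower in 1 (median 0.55), *Dcx* among them at 403 and 449 CPM in LGE-type neurons (0.90, SE 0.167, adjusted p = 0.00633), a call lost without the CGE sum of embryo 5 (adjusted p = 0.0529).

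Markers of dividing cells and of radial glia were lower than in LGE-type neurons, in 9 of 12 and 6 of 10 cases, with 0 higher in either (medians -1.04 and -1.06). *Fabp7*, a radial glial lipid-binding protein, was at 200 and 142 CPM in CGE members and 995 and 573 in LGE-type neurons (-2.11, SE 0.245, adjusted p = 0.000514). *Top2a* was at 500 and 829 CPM there (-1.02, SE 0.236, adjusted p = 0.0189), a call lost without cycling cells (adjusted p = 0.533) and without the CGE sum of embryo 4 or 5 (0.125 and 0.111). Leading genes of this comparison that also led the first were *Nr3c2*, at 4.76 and 0.559 CPM in LGE-type neurons (6.77, SE 0.346, adjusted p = 3.74e-06), and *Pdzrn3*, at 31.5 and 28.0 (3.78, SE 0.244, adjusted p = 1.24e-05). *Sorcs3* was at 61.2 and 53.7 CPM there (2.88, SE 0.277, adjusted p = 0.000157) and *Wnt5a* at 5.35 and 12.9 (3.595, SE 0.421, adjusted p = 0.000541). *Galnt14*, a glycosyltransferase gene, was at 61.4 and 86.2 CPM in CGE members against 5.35 and 1.12 (4.58, SE 0.422, adjusted p = 0.000124). Of the genes named here, *Nr3c2*, *Sorcs3*, *Wnt5a*, *Pdzrn3*, *Htr3a* and *Cxcl14* were among those called higher in CGE members against both classes.

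**Figure D5:**
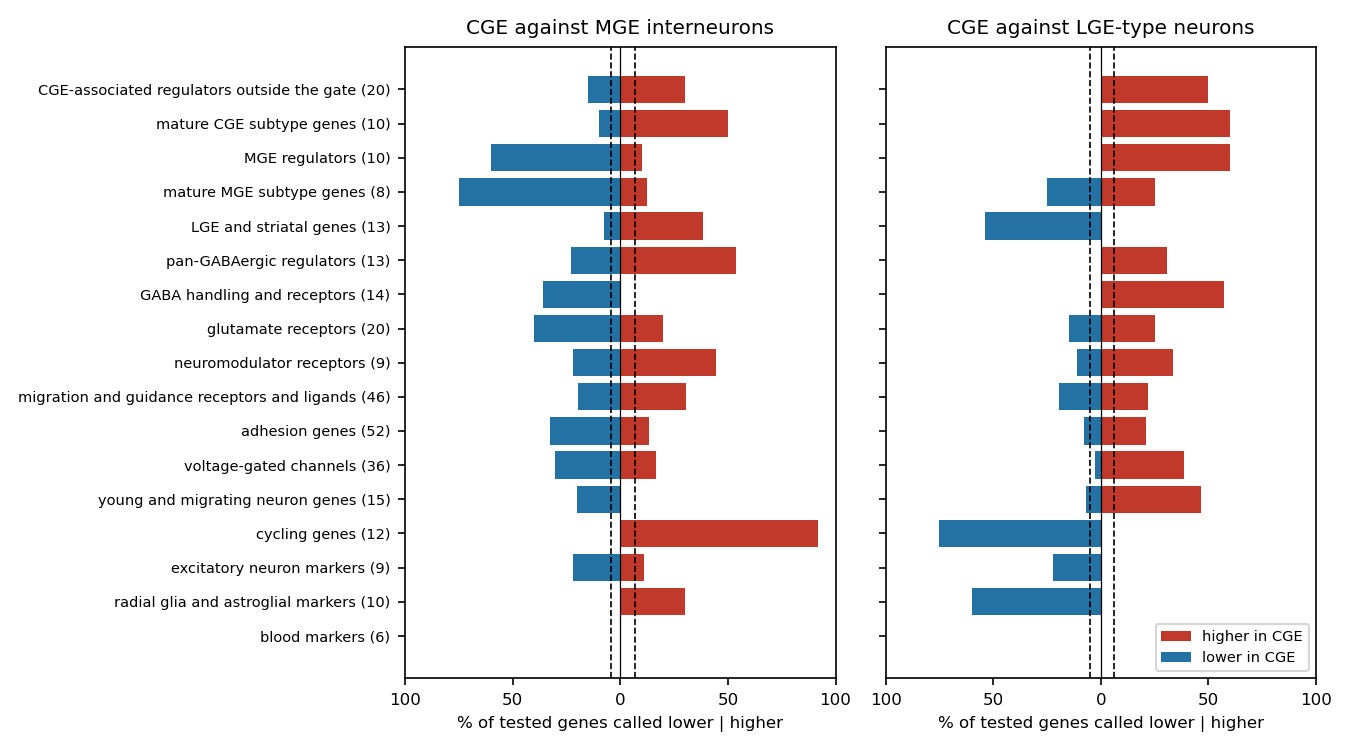
Percentage of the tested genes of each list that were called higher (red, right) or lower (blue, left) in CGE members, against MGE interneurons and against LGE-type neurons, with the number tested against MGE interneurons in brackets. Dashed lines give the percentage called over all tested genes (4.49% and 6.65% on the left panel, 5.18% and 6.16% on the right). The cycling bar is on the higher side against MGE interneurons (11 of 12) and on the lower side against LGE-type neurons (9 of 12).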

How the data were processed

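For each embryo the authors deposited a matrix of raw UMI counts, not normalized (32285 genes, Cell Ranger 7.1.0 in the file headers and 7.0.0 in the submitters' processing notes, mouse build mm10). Counting of introns and of strand is not given in the sources used here. Barcodes with at least 1000 genes and at most 10% mitochondrial UMIs were kept (10879 and 11468 of 12825 and 12289, from 124318613 and 117679925 UMIs). The 40 genes with a repeated symbol were kept apart by ID. Cells were classed by UMI gates, and counts were summed per class and embryo. Excitatory neurons had no *Gad1* or *Gad2* and at least 4 *Neurod2* and *Neurod6* UMIs, and radial glia-type cells at least 3 of *Sox2*, *Hes1* and *Hes5*.

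The 6 sums of the CGE, MGE and LGE-type classes were fitted once with edgeR 4.0.16 (R 4.3.3; TMM, filterByExpr, quasi-likelihood test), with Benjamini-Hochberg adjustment over all tested genes and calls at 0.05. The test was also run on simulated counts with the same spread for every gene and no embryo effect, unlike these data, and its outcome is not reported here. The 11 gate genes were fitted but not called. Standard errors were derived from each gene's fold change and its F statistic. With 2 embryos, p-values measure the spread between 2 animals, from 1 library each. Embryo numbers pair the class sums, since each embryo is 1 animal. The deviations of paired sums correlated across genes at 0.12 (CGE and MGE), 0.11 (CGE and LGE) and 0.13 (MGE and LGE). Among genes above the median level the correlations were 0.23, 0.21 and 0.14. A gene at 0 UMIs in a class was set at a floor of 3 UMIs. Doublets were scored against simulated ones (0.8% marked per 1000 barcodes) and kept in the main analysis. Coordinates are those of RefSeq GRCm38.p6, which matched 412 of 414 genes by symbol. Python 3.11.15 with scipy 1.17.1 gave exact 95% intervals.

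The members and gene lists were chosen with earlier results of these data known. The text draws on the gate genes, the listed genes and the called genes of largest fold change in each direction (15 against MGE interneurons, 10 against LGE-type neurons) with at least 50 CPM in both embryos of the higher class and the same direction in both; among these, genes were picked with their values known. Alternatives were *Adarb2* minima of 5 and 2, 1500 genes, 5% mitochondrial UMIs, doublets removed, an *Lhx6* minimum of 2, DESeq2 size factors, DESeq2 1.42.0, no filter, a replicate block, 2 classes only, each embryo left out, and cells thinned to 3000 UMIs. Those added after seeing the data were leaving out members with 3 or more *Meis2* UMIs or cycling cells. Some listed genes count in their lists but are not reported here.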

Additional observations from a re-analysis of the deposited data

How the results depend on the processing

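The embryo as a replicate block gave 879 higher and 621 lower genes against MGE interneurons and 857 and 793 against LGE-type neurons. Alternatives were followed for 130 gene comparisons, not all that the text names. Of these 130 the block changed only the call of *Erbb4* (MGE), which is given above. Leaving out 1 CGE sum gave 411 to 552 higher and 272 to 339 lower genes (MGE) and 359 to 395 and 191 to 244 (LGE); the remaining sum was assumed to vary like the others. Without *Meis2*-rich members the counts were 261 and 310 (MGE) and 1170 and 1361 (LGE), and the members were 0.735% and 0.663% of kept cells. Without cycling cells they were 342 and 333, and 413 and 365. DESeq2 called 464 and 334 genes against LGE-type neurons, and without a filter on low counts 902 and 1030 were lower in the MGE and LGE comparisons. Thinned shares were 7.27% and 15.2% for *Htr3a*, 29.1% for *Cnr1* in embryo 4, and 6.36% and 3.81% for *Cxcl14*. Among the 130, directions turned for *Npas1* against MGE interneurons (0.48 without *Meis2*-rich members, 0.031 without cycling cells). They also turned for *Reln* (-0.00036 at 5 *Adarb2* UMIs, -0.11 without doublets) and for *Foxp2* (-0.85 without *Meis2*-rich members). Outside the 130, *Vim* (-0.18) and *Nes* (-0.33) against MGE interneurons were among those that turned without *Meis2*-rich members. None of the turned values printed here was called, and the cause was not tested. Over 2162 values of the 130 comparisons under alternatives, 2063 were counted as kept, 62 lost their side of the threshold, 7 gained it, 25 moved and 5 turned. With a whole embryo left out there was no test, so 117 and 118 of those kept had no side to keep. They counted as kept if the shift was small beside the spread between the embryos. A value near the middle of both embryos nearly always meets that rule, so these add no support. The split by *Nr2f2* and *Prox1* had no test, since 11 and 18 *Prox1*-only members were under 20. Sums of 128 and 110 cells limit genes under about 10 CPM most.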
